A study of Mus musculus with 4 samples.

Results

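Apolipoproteins are the protein coats of plasma lipoproteins, and the liver makes most of them. Apob is the structural protein of very low density lipoprotein, and the microsomal triglyceride transfer protein Mttp loads lipid onto it in the endoplasmic reticulum. Apoa1 and Apoa2 are the main proteins of high density lipoprotein, while the exchangeable apolipoproteins of the C, E and A groups move between particles and set how fast lipases and receptors remove them. Apoh, also called beta-2-glycoprotein I, is a phospholipid-binding plasma protein. The 10 genes described here (Apoa1, Apoa2, Apoa4, Apoa5, Apob, Apoc1, Apoc3, Apoe, Apoh and Mttp), of 21787 protein-coding genes considered, were chosen by name. Their values were taken from every assembled locus that overlapped one of their exons on GRCm38, 15 of 41541 and 13 of 26238 loci in wild type replicates 1 and 2, and 14 of 56237 and 14 of 30190 in knockout replicates 1 and 2.

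Liver RNA came from male C57BL/6 mice at 12 weeks of age, with 2 wild type libraries and 2 from mice homozygous for a disruption of the hemojuvelin gene (Hjv, annotated as Hfe2), the co-receptor through which bone morphogenetic proteins induce the iron hormone hepcidin. Both genotypes ate an iron-poor AIN-93G diet (2.5 mg/kg) for 50 days from 5 weeks of age. The wild type mice were bought from a supplier and the knockout mice came from another laboratory, so genotype and colony cannot be told apart. No label says whether the libraries are separate animals, so p-values measure the spread between these libraries, which may be technical.

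The deposited unit is FPKM, fragments per kilobase of transcript relative to the mapped fragments of the library, in loci that Cufflinks assembled in each library without gene names. Scaled FPKM are gene values divided by a size factor per library, which adjusts the overall level of each library and nothing else. If 1 step between the confidence bounds of a short locus is 1 fragment, the libraries hold 51.3 to 132 M fragments. Hfe2 measured 9.22 and 29.6 scaled FPKM in wild type, gave no usable locus in knockout replicate 1, and stood at 0.237 in knockout replicate 2. Its loci spanned 45.1% and 81.5% of the transcript in wild type and 14.3% in knockout replicate 2, so the first and last of these values miss the 50% asked of tested genes. Of the 8 hepatocyte markers listed, 7, 7, 7 and 6 had a usable locus in the order wild type 1, wild type 2, knockout 1, knockout 2. Albumin (Alb) had none in any library, so a gene without a locus is not a gene at 0. Knockout replicate 1 was the most fragmented library, with 23593 of its 56237 loci under 250 bases. Over the 7923 genes tested, the log2 ratio between the knockout libraries, replicate 2 over replicate 1, had a Spearman correlation of 0.477 with transcript GC content, given as a description across genes. For the wild type libraries the same correlation was 0.263.

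Of the 10 genes, 8 had a usable value in all 4 libraries, and the 2 others, Apoa5 and Apoe, lacked one in knockout replicate 2. Apoa4 and Apoa1 lay higher in both knockout libraries than in both wild type libraries, and Mttp lay lower. Apoa2, Apob, Apoc1, Apoc3 and Apoh overlapped between the genotypes. The 3 of 8 genes whose groups did not overlap stand beside 46% of all 7923 genes tested, 22.3% higher and 23.8% lower in knockout, so that count is no larger than the background. All 3 had a ratio of at least 1.5 between the means, which 11.9% of all genes tested reached upward and 6.82% downward without overlap. None of the 8 genes passed limma at an adjusted p under 0.05 over all genes tested, where 0% of genes were called in either direction. Unadjusted p was under 0.05 for Apoa4, Apoa1 and Mttp, against 5.83% of all genes higher and 5.35% lower at that level. The median log2 difference, knockout minus wild type, was 0.11 over the 8 genes and 0.02 over all genes tested.

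**Figure D1:**
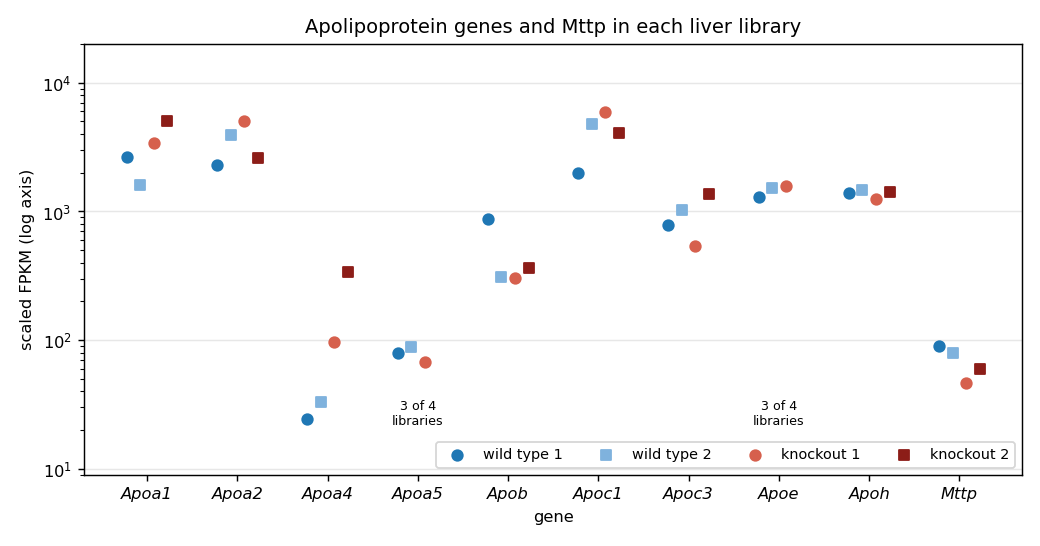
Scaled FPKM (log axis) of each of the 10 genes in the 2 wild type libraries (blue) and the 2 knockout libraries (red), 1 point per library. Apoa4 spans 24.6 to 336, with both knockout libraries above both wild type libraries, Mttp lies the other way, and Apoa5 and Apoe have values in 3 of 4 libraries.

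Apoa4, an apolipoprotein of chylomicrons and high density lipoprotein that is made in intestine and liver, had the largest log2 difference of the 8. It measured 24.6 and 33.2 scaled FPKM in wild type replicates 1 and 2, and then 97.2 and 336 in the knockout libraries of the same numbers. The groups did not overlap, and the knockout libraries differed from each other far more than the wild type libraries did. Knockout averaged 216 ± 169 and wild type 28.9 ± 6.08 (SD, n = 2 each), a ratio of 7.50. On the log2(scaled FPKM + 1) scale the difference was 2.62 (SE 0.61), and limma gave an unadjusted p of 0.00824 and an adjusted p of 0.402. The loci behind these values spanned 93.9% and 92.0% of the transcript in wild type replicates 1 and 2. In knockout replicates 1 and 2 they spanned 79.3% and 94.9%, so neither the ratio nor the log2 difference compares the same bases. On the first locus alone, which covered nearly the same bases in every library, the ratio was 4.49. Among the 7923 genes tested, Apoa4 ranked 1643rd and 1333rd from the top in the wild type libraries and 460th and 128th in the knockout libraries. Within each wild type library it lay below Mttp, and within each knockout library it lay above it.

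The adjusted p of Apoa4 depended on the libraries. Without knockout replicate 1 the log2 difference was 3.54 and the adjusted p by limma 0.0274. Without knockout replicate 2 they were 1.72 and 0.0688. In those fits the lone knockout library is assumed to vary like the wild type pair. The adjusted p ranged from 0.0274 to 0.998 over the alternatives. Apoa4 and Apoa1 transcripts are 57.6% and 56.8% GC, above the median of 49.3% of the genes tested. With the GC trend removed from each library the log2 difference of Apoa4 was 2.22.

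Apoa4 (chromosome 9, 46240696 to 46243459, GRCm38, plus strand) was not assembled as 1 transcript in any library. Each library had a long first locus over exons 1, 2 and the start of exon 3, and a second locus further along exon 3. The second locus ended at 46243439 and 46243349 in wild type replicates 1 and 2, and at 46243140 in both knockout libraries, short of the end of the gene. The break fell at nearly the same place in all 4 libraries, inside the coding part of exon 3. In wild type replicate 1 the first locus ended at 46242679 and the second began at 46242717, and in wild type replicate 2 these positions were 46242678 and 46242687. In knockout replicates 1 and 2 the second locus began at 46242621, before the first one ended at 46242678 and 46242669. The reference stretch of the break is shown because the value of Apoa4 is joined across it, chr9:46242621-46242746 of GRCm38, plus strand, from the GENCODE transcript. The 38 capitals mark the bases left out by at least 1 wild type library.
Apoa4 exon 3: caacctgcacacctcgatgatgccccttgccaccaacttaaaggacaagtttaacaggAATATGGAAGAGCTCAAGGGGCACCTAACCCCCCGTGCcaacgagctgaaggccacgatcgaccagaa

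Knockout values lay above wild type values on both sides of the break. The first locus, which covered nearly the same bases in every library, measured 32.7 and 40.8 scaled FPKM in wild type against 108 and 222 in knockout, a ratio of the means of 4.49. The second locus measured 13.6 and 21.6 in wild type against 77.1 and 450.0 in knockout, a ratio of 14.99. It covered 723 and 663 bases in wild type against 520 bases in each knockout library, so this ratio does not compare the same bases. The second locus lay below the first in wild type replicates 1 and 2, at 0.416 and 0.529 of its value, and in knockout replicate 1, at 0.715. In knockout replicate 2 it lay above, at 2.02 times the first. A further locus of knockout replicate 2 over the end of exon 3 measured 543 and entered the gene value of that library only. The direction was the same for both loci.

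**Figure D2:**
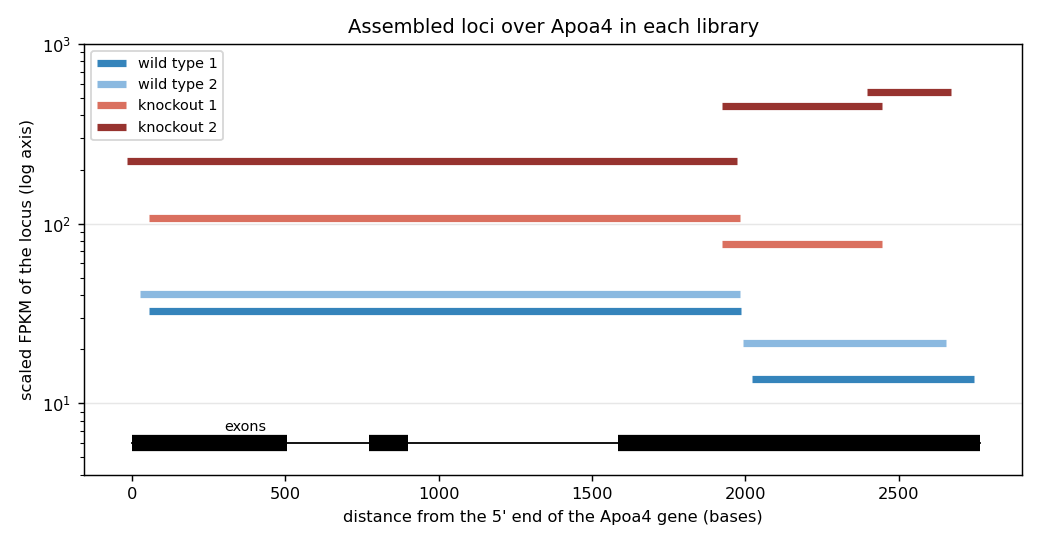
Assembled loci over Apoa4, drawn as bars from start to end (distance from the 5′ end of the gene in bases) at their scaled FPKM (log axis), with the exons in black. Every library breaks inside the last exon, and the knockout bars lie above the wild type bars on both sides, most of all at the 3′ end in knockout replicate 2 (450 and 543).

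Intestinal epithelium also makes Apoa4, Apob and Mttp, so enterocyte markers were read. Vil1, Lct and Sis had no usable locus in any library. Fabp2, the fatty acid binding protein on the same list, measured 98.1 and 99.7 scaled FPKM in wild type. In knockout replicates 1 and 2 it measured 59.1 and 40.1. With a value for 1 of the 4 markers listed, the presence of intestinal tissue was not tested. Summed markers of Kupffer cells, which also make Apoe, were 109 to 134 in wild type (7 and 7 of 7 with a locus) and 83.6 to 114 in knockout (6 and 7 of 7). In bulk liver, fewer cells of a type and less RNA per cell cannot be told apart.

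Apoa1, the main protein of high density lipoprotein and the activator of the plasma enzyme Lcat, was the other gene higher in both knockout libraries. It measured 2643 and 1601 scaled FPKM in wild type replicates 1 and 2, against 3421 and 5013 in knockout replicates 1 and 2. The groups did not overlap, though wild type replicate 1 lay closer to knockout replicate 1 than to wild type replicate 2. Knockout averaged 4217 ± 1126 and wild type 2122 ± 736 (SD, n = 2 each), a ratio of 1.99. The log2 difference was 1.01 (SE 0.37), and limma gave an unadjusted p of 0.0438 and an adjusted p of 0.444. Apoa1 was among the most abundant genes tested, in ranks 4 and 19 in wild type against 5 and 1 in knockout, and under quantile normalization its groups overlapped and the log2 difference was 2.47 (SE 1.43).

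The size of the Apoa1 difference also depended on which deposited number was read. In the wild type libraries its FPKM lay above the upper confidence bound, at 2472 against bounds of 1598 to 1628 in replicate 1 and at 1465 against 1156 to 1186 in replicate 2, before scaling. In the knockout libraries it lay just below the lower bound, at 4095 against 4120 to 4206 and at 4783 against 4855 to 4890. With the midpoint of the bounds in place of FPKM, and the same scaling factors, the means were 1503 ± 314 and 4292 ± 1152 (SD, n = 2 each), a ratio of 2.86. Limma on midpoints gave a log2 difference of 1.51 with an adjusted p of 0.485. With the GC trend removed the log2 difference was 0.68, and without wild type replicate 2 it was 0.64. The Apoa1 loci covered 477 and 700 exonic bases in wild type replicates 1 and 2. In knockout replicates 1 and 2 they covered 713 and 1144, so the Apoa1 ratios do not compare the same bases.

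Apoa1, Apoc3, Apoa4 and Apoa5 lie in 1 cluster of 43.3 kb on chromosome 9 (46228580 to 46271919). Apoc3 lies between the pair of members that was higher in both knockout libraries. Apoc3 (46232933 to 46235636), an inhibitor of triglyceride clearance, measured 782 and 1021 scaled FPKM in wild type against 538 and 1359 in knockout. Its knockout libraries lay on either side of both wild type libraries. The log2 difference was -0.06 (SE 0.49), and it has no direction here, since it was 0.14 with values as deposited and 0.63 without knockout replicate 1.

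Apoa5 (46268633 to 46271919), which promotes lipolysis by lipoprotein lipase, measured 79.9 and 88.6 scaled FPKM in wild type, against 67.5 in knockout replicate 1. In knockout replicate 2 a single locus ran from 46268404 to 46282638, over Apoa5 and its neighbor Zpr1, at 99.3 FPKM as deposited. Reads of the genes cannot be told apart in that locus, and Apoa5 was not tested. Zpr1 measured 12.1, 11.1 and 17.0 in the other 3 libraries.

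The sequences before the starts of Apoa1 and Apoa4 are shown because these neighbors were the members higher in both knockout libraries. They are RefSeq promoter windows of GRCm38.p6, plus strand, trimmed to end before the GENCODE start, chr9:46228380-46228579 for Apoa1 and chr9:46240594-46240695 for Apoa4. Capitals mark exact matches, on either strand, to CAAAGTTCA or CAAAGTCCA, letters found in binding sites of the liver factor HNF4A, or to the TATA letters TATAAA. The stretch of Apoa4, of 102 bases, holds 1 match, and that of Apoa1, of 200 bases, holds none. Only these exact letters were searched, so a stretch without a match may still hold a binding site. Binding was not tested.
Apoa1 upstream: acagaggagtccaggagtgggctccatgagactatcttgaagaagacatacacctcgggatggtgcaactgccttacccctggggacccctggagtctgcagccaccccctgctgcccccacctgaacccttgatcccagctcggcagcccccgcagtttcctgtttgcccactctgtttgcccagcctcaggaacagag
Apoa4 upstream: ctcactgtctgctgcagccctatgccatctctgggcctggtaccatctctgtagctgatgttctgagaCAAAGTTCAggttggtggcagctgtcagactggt

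The letters were chosen with these sequences in view, so their presence is a description. The promoter table held 8 of the 10 genes. Of its 32851 windows of 250 bases before a start, 0.335% hold CAAAGTTCA, 0.384% CAAAGTCCA and 12.4% TATAAA. Among the members, TATAAA was in windows of Apoa2, Apoa5, Apob and Apoe. The match began 212 bases before the start in Apoa2, 60 in Apob, 31 and 56 in the Apoa5 windows, and 100 and 96 in Apoe. Whether any of these acts as a TATA box was not tested. Hnf4a itself measured 106 and 94.7 scaled FPKM in wild type against 61.3 and 138 in knockout, with groups that overlapped.

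Mttp, which forms the transfer complex with protein disulfide isomerase P4hb, was the member lower in both knockout libraries. It measured 90.2 and 79.3 scaled FPKM in wild type replicates 1 and 2, against 46.3 and 60.2 in knockout replicates 1 and 2. Both knockout libraries lay below both wild type libraries, with a gap larger than either pair's spread. Knockout averaged 53.3 ± 9.88 and wild type 84.7 ± 7.68 (SD, n = 2 each), a ratio of wild type to knockout of 1.59. The log2 difference was -0.67 (SE 0.22), and limma gave an unadjusted p of 0.0286 and an adjusted p of 0.431. Under the alternatives the difference lay between -0.89 and -0.45, and every fit of all 4 libraries had an adjusted p over the threshold. The Mttp transcript is 45.9% GC, below the median of 49.3% of the genes tested. With the GC trend removed the log2 difference was -0.57, with an unadjusted p by limma of 0.0588.

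Mttp (chromosome 3, 138089854 to 138144968, minus strand) was assembled as a main locus of about the same ends in all 4 libraries, and as a further locus over the upstream exons in 3 of them. The upstream loci had a low level, 7.03, 1.29 and 4.55 scaled FPKM, and enter the weighted mean of those libraries only. The main locus alone measured 118 and 105 in wild type against 59.1 and 60.2 in knockout, with means of 112 ± 9.17 and 59.6 ± 0.843 (SD, n = 2 each). On that locus the knockout libraries lay closer together, and the ratio of wild type to knockout was 1.87. Mttp lies on the same chromosome as the disrupted gene, and any effect of that position was not tested.

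P4hb, the partner of Mttp, measured 573 and 517 scaled FPKM in wild type against 340 and 443 in knockout, and its unadjusted p was 0.0925. Apob, the lipid acceptor, did not separate by genotype. It measured 880 and 308 in wild type replicates 1 and 2, against 305 and 367 in knockout replicates 1 and 2. Wild type replicate 1 stood apart from the other 3 libraries. Its mean of 594 ± 405 in wild type against 336 ± 43.9 in knockout (SD, n = 2 each) gave a log2 difference of -0.64 (SE 0.53) and an adjusted p by limma of 0.651. Without wild type replicate 1 the difference was 0.11, and without wild type replicate 2 it was -1.41. The Apob bounds were narrow, within 0.371% to 0.670% of their midpoint, far less than the difference between the wild type libraries.

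Apob mRNA is edited by the deaminase Apobec1 with its cofactor A1cf, and these differed in opposite directions. Apobec1 measured 5.99 and 5.43 scaled FPKM in wild type against 10.96 and 9.39 in knockout, a log2 difference of 0.73 with an unadjusted p of 0.0131. A1cf measured 48.4 and 41.7 in wild type against 31.4 and 18.4 in knockout, a log2 difference of -0.87 with an unadjusted p of 0.0344. The A1cf difference was -0.51 without knockout replicate 2 and -1.21 without knockout replicate 1. Neither passed limma over all genes in the fit with all 4 libraries (adjusted p = 0.418 for Apobec1 and 0.438 for A1cf). The files hold no reads, so editing itself was not measured.

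The remaining exchangeable apolipoproteins were abundant and overlapped between genotypes. Apoc1, a small inhibitor of lipoprotein uptake and lipase activity, measured 1979 and 4803 scaled FPKM in wild type against 5917 and 4080 in knockout. Wild type replicate 1 was the low library. The Apoc1 log2 difference was 0.67 (SE 0.51), and it was 0.02 without wild type replicate 1. Apoa2 measured 2297 and 3896 in wild type against 5081 and 2616 in knockout, so each genotype had a high and a low library. Its log2 difference of 0.29 (SE 0.46) became -0.16 when knockout replicate 1 was left out and -0.11 when wild type replicate 1 was.

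Apoe, a ligand through which the liver takes up remnant particles, measured 1302 and 1534 scaled FPKM in wild type, against 1583 in knockout replicate 1, and had no usable locus in knockout replicate 2. With 1 knockout value there was no test in the fit of all 4 libraries. Apoe and Apoc1 lie with Apoc2 and Apoc4 in 27.6 kb of chromosome 7 (19671579 to 19699188). Apoc2, the cofactor of lipoprotein lipase, and Apoc4 were assembled as 1 joint locus in each wild type library, at 90.3 and 161 scaled FPKM, and as separate loci in the knockout libraries. Apoc2 then measured 571 and 356 and Apoc4 205 and 418. Before scaling, the knockout Apoc2 FPKM lay above its bounds, at 684 against 321 to 346 and 340 against 250 to 258. That of Apoc4 lay above its bounds in knockout replicate 1, at 245 against 155 to 168, and inside them in knockout replicate 2. A joint and a separate locus are not comparable, so no difference is given.

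Apoh had the narrowest range of the tested members. It measured 1385 and 1472 scaled FPKM in wild type against 1253 and 1425 in knockout. The log2 difference was -0.10 (SE 0.22). It ranked 20th or 21st of 7923 in every library. The first exon in the annotation, 171 bases far upstream of the others, was touched in 3 libraries by loci that lay mostly outside Apoh or belonged to the neighboring gene Prkca, and these were not used.

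FPKM is a level per length, so the members can be ordered. In wild type the means ran from Apoc1 (3391), Apoa2 (3096) and Apoa1 (2122) through Apoh (1429), Apoc3 (901) and Apob (594) to Mttp (84.7) and Apoa4 (28.9). Apoc1, Apoa2 and Apoa1 overlapped with their neighbors in that order, as did Apoc3 with Apob, while Apoh lay apart from Apoa1 and Apoc3. With midpoints of the bounds in place of FPKM, Apoa1 (1724 and 1281) overlapped with Apoh (1168 and 1496), and the mean of Apoa2 (3148) lay above that of Apoc1 (3118). Apoe overlapped with Apoh, and Apoa5 with Mttp. In knockout Apoc1 (4998), Apoa1 (4217) and Apoa2 (3848) overlapped at the top, and the levels of Apoa4 overlapped with those of Apob instead of lying lowest.

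Deposited FPKM and their own bounds disagreed for most loci over these genes. Of 56 loci that touched their exons, 46 were used, and of these 24 had an FPKM above the upper bound, 17 below the lower bound and 5 inside. The used loci lay at 0.980 to 2.20 times the midpoint of their bounds. The 3 loci under 250 bases lay far higher, at 4.63 to 723 times the midpoint, and none was used. The most extreme was a locus of 153 bases at Apoa2 in knockout replicate 2, at 1185 FPKM with bounds of 0.944 and 2.33. A locus of 184 bases at Mttp in knockout replicate 1 had 49.6 FPKM with bounds of 0.988 and 3.06. Length was not the only condition, since a locus of 151412 bases touching Apoh in knockout replicate 1 had 671 FPKM with bounds of 1.12 and 3.48. In all libraries 98.7% to 99.5% of loci under 250 bases lay above their upper bound, against 20.3% to 49.9% of longer loci. For the 30 used member loci of at least 200 FPKM the bounds lay within 0.360% to 3.86% of their midpoint, which covers counting error only.

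**Figure D3:**
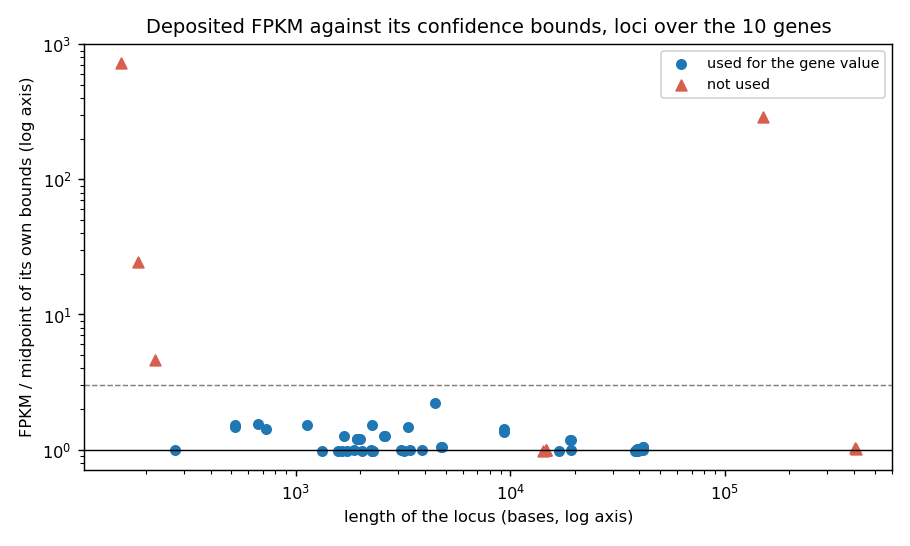
Ratio of the deposited FPKM to the midpoint of its own bounds (log axis) against the length of the locus (bases, log axis) for the 56 loci over the 10 genes. Loci used for gene values (blue) lie at 0.980 to 2.20, under the dashed limit of 3, and loci not used (red) reach 723.

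Of 75 other genes of lipoprotein assembly, remodelling and uptake, 65 were tested. Knockout was higher in both libraries for 14 of them and lower in both for 17, with 34 overlapping, and the median log2 difference was 0.00. These shares of 21.5% and 26.2% lie close to the 22.3% and 23.8% of all genes. By limma 0 passed over all genes. At an unadjusted p under 0.05 by limma, 2 were higher and 7 lower, beside 5.83% and 5.35% of all genes tested.

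The roles were set after the values were seen, and of all genes tested 22.3% lay above and 23.8% below. By role, the 22 tested genes of assembly, lipid supply and secretion had 3 above and 7 below, with a median log2 difference of -0.10. Of these Plin2, the lipid droplet coat protein, measured 245 and 223 scaled FPKM in wild type against 98.9 and 102 in knockout, a log2 difference of -1.21 (SE 0.18) and an adjusted p by limma of 0.316. The arylacetamide deacetylase Aadac, which mobilizes triglyceride for secretion, measured 423 and 456 in wild type against 208 and 225 in knockout, a log2 difference of -1.02. The GTPase Sar1b, which starts the vesicle coat that carries large lipoproteins out of the endoplasmic reticulum, measured 170 and 196 in wild type against 127 and 92.6 in knockout, a log2 difference of -0.75. The Sar1b loci of knockout replicate 2 spanned 51.7% of the transcript, against 100% in wild type and in knockout replicate 1. The paralog Sar1a measured 30.4 and 29.7 against 32.5 and 28.8 and overlapped.

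Among other particle proteins 4 of 7 tested were below and 1, Apom, was above, beside 23.8% and 22.3% of all genes tested. Saa1 and Saa2, near-identical acute phase proteins whose reads may be split between them, measured 22.1 and 40.8, and 13.4 and 24.7, in wild type, and 18.8 and 14.8, and 8.56 and 7.44, in knockout. Their log2 differences were -0.81 and -1.10. Without wild type replicate 2 they were -0.40 and -0.69, and without wild type replicate 1 they were -1.25 and -1.53. Apom measured 128 and 167 in wild type against 175 and 238 in knockout.

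The 12 receptor and uptake genes had 5 above and 0 below, with a median log2 difference of 0.42. Over all genes tested, 22.3% lay above and 23.8% below. The scavenger receptor Stab1 measured 2.41 and 2.45 in wild type against 2.67 and 11.5 in knockout, a log2 difference of 0.98. Of the 8 tested transcription factors, a separate role, 2 were above and 2 below. Among them the sterol factor Srebf2 measured 3.65 and 3.33 in wild type against 4.56 and 9.24 in knockout. The oxysterol receptor Nr1h2, also counted there, measured 3.80 and 4.001 against 4.63 and 14.6. In Stab1, Srebf2 and Nr1h2 knockout replicate 2 was the highest library. Without it, the log2 difference of Stab1 was 0.09 and that of Nr1h2 0.20, and without knockout replicate 1 they were 1.87 and 1.69. For Srebf2 the difference of 0.75 became 0.31 and 1.21 in these fits. With the GC trend removed it was 0.61 for Stab1, 0.31 for Nr1h2 and 0.33 for Srebf2.

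Of the 10 tested lipases and remodelling genes 0 were above and 3 below, beside 22.3% and 23.8% of all genes tested. Endothelial lipase Lipg measured 7.13 and 5.76 scaled FPKM in wild type against 3.00 and 2.87 in knockout, a log2 difference of -0.91. Lcat, the enzyme that Apoa1 activates, measured 141 and 149 in wild type against 147 and 448 in knockout, so that a single library stood apart. The transcription factor Foxo1 had the lowest log2 difference, -6.01, from a wild type replicate 1 value of 22564 against 11.2, 7.64 and 6.70 in the other libraries. That value rests on a locus of 64 bases whose FPKM lay inside its own bounds, and the long Foxo1 locus of the same library measured 9.69.

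**Figure D4:**
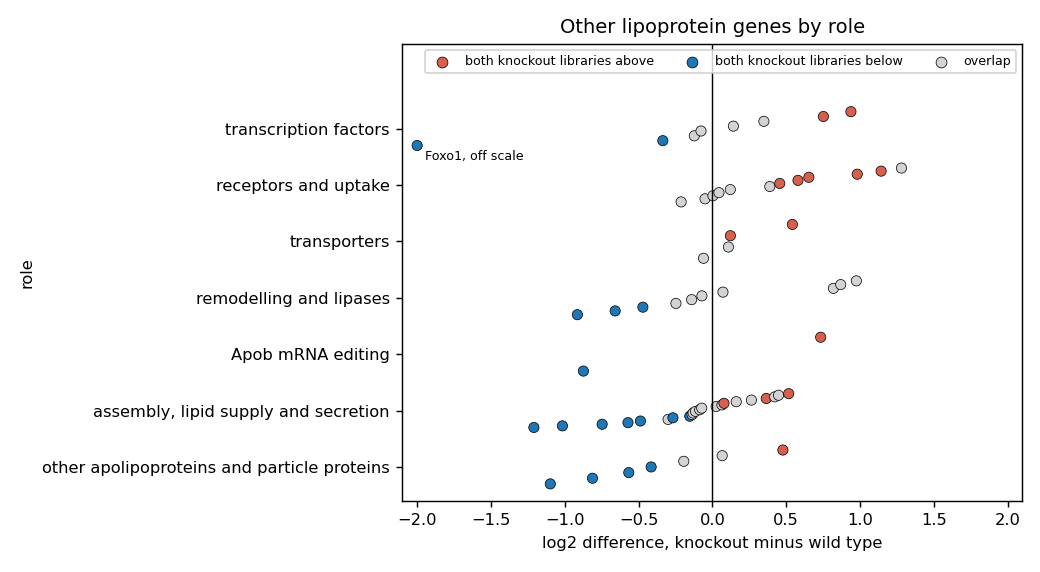
Log2 difference, knockout minus wild type, of the 65 tested genes of the lipoprotein list by role, 1 point per gene, colored by whether knockout lay higher (red) or lower (blue) in both libraries or overlapped with wild type (grey). Receptor and uptake genes have 5 red and 0 blue points, and the assembly genes 3 red and 7 blue. Of all genes tested, 22.3% lay higher and 23.8% lower in both knockout libraries. The roles were set after the values were seen. Foxo1, at -6.01, is drawn at the left edge.

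The genes closest to each separated member were found by Euclidean distance between log2 values centered on their own mean over the 4 libraries, among 3253 other genes of at least 10 scaled FPKM on average. For Apoa4 they were Fam213b (distance 0.43), Alad (0.65) and Oaf (0.69). Closest to Apoa1 were Pebp1 (0.22), Mlxipl (0.31) and Entpd8 (0.33). Hacl1 (0.04), Ppid (0.10) and Copb2 (0.11) lay closest to Mttp. With 4 libraries many genes share such a profile.

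**Figure D5:**
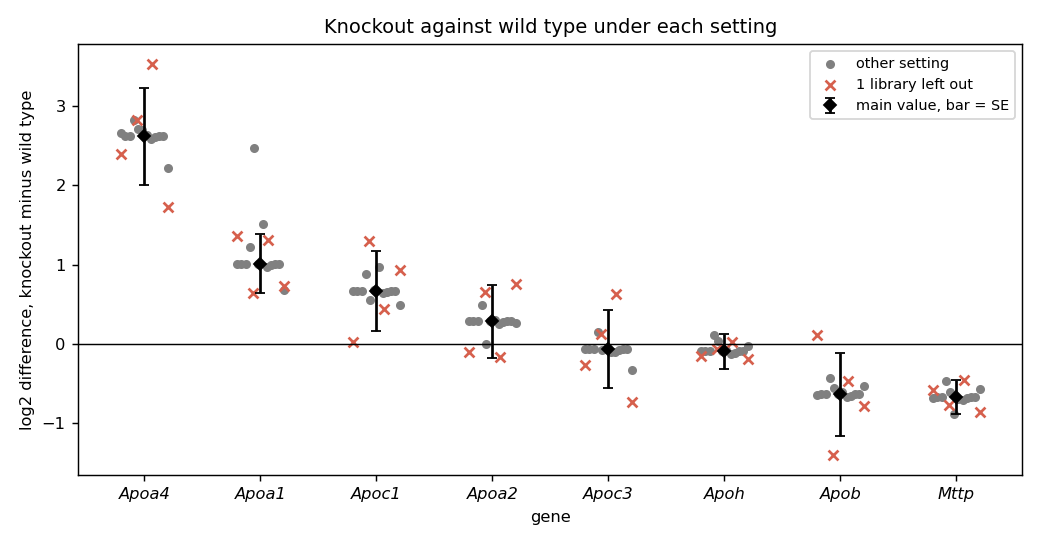
Log2 difference, knockout minus wild type, of the 8 tested members in the fit of all 4 libraries (black, bar = SE), with 1 library left out (red crosses) and under the other settings (grey). Apoa4 (1.72 to 3.54), Apoa1 and Mttp (-0.89 to -0.45) keep their sign throughout, while Apoa2, Apob, Apoc3 and Apoh cross 0. Where groups do not overlap, leaving out 1 library can hardly reverse the sign, and some settings leave the log2 difference unchanged.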

How the data were processed

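The authors deposited FPKM with confidence bounds for each locus, per the file headers. Tools listed, per the submitters' processing notes, were FastQC, TopHat and Cufflinks. The same notes give mm9 as the build, but the loci were placed on GRCm38, where their ends meet the GENCODE M21 exons of the members. Here a locus was given to the gene that shared most exonic bases with it. It needed 50% or more of its length within the gene, and a rival gene could share at most 25% as many bases. A locus that touched a single exon also had to be 50% exonic. Loci with FPKM over 3 times the midpoint of their bounds were dropped. Gene values are averages of locus FPKM, weighted by exonic length, where at least 50% of a coding transcript was spanned, and divided by a median-of-ratios factor (0.935 and 0.915 for wild type, 1.20 and 0.954 for knockout).

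Genes with a value in all 4 libraries and at least 1 scaled FPKM in at least 2 were tested with limma 3.58.1 in R 4.3.3 on log2(scaled FPKM + 1), two-sided, with a mean-variance trend and Benjamini-Hochberg adjustment over 7923 genes at 0.05. An exact permutation test of 2 libraries against 2 cannot give a p under 0.333. The fit was tested on simulated data. Named genes were all members, the targeted gene, the 3 genes of nearest profile to each separated member, and of the pathway list up to 12 with the largest absolute log2 difference among those with groups that did not overlap and a ratio of at least 1.5. P4hb, Apobec1, Sar1a, Apom, Lcat, Hnf4a and Apoc2 with Apoc4 were named after their values were seen, as were the roles. Values of 2 genes of the pathway list are not reported here, although its counts include them. Members, lists and these rules on loci were chosen with earlier results of these data known. Alternatives were other pseudocounts, filters, scalings, locus rules and fits, and each library left out. The GC trend correction and the recounts of groups that overlap were added after the data were seen. Markers of sinusoidal endothelium (43.3 to 54.9 scaled FPKM in all in wild type, 50.2 to 55.5 in knockout) and stellate cells (65.1 to 77.5 and 70.8 to 85.3) were also read. So were those of cholangiocytes (24.4 to 34.6 and 15.0 to 26.1) and red cells (0 to 79.2 and 0 to 122). Of 5 cholangiocyte markers 3, 3, 2 and 5 had a locus in wild type 1, wild type 2, knockout 1 and knockout 2. Of 5 red cell markers 1, 0, 2 and 0 had a locus in that order. The sums leave out markers without a locus, so the cholangiocyte and red cell ranges do not compare the same genes.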

Additional observations from a re-analysis of the deposited data

How the results depend on the processing

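Apoa4, Apoa1, Apoc1 and Mttp kept their sign under all 16 alternatives, but not all of these could have changed it. The filters, the fit without a trend and the replicate block leave the log2 difference of a gene as it was. For Apoa4, Apoa1 and Mttp, whose groups did not overlap, leaving out 1 library could hardly reverse the sign. With 1 library left out, the log2 difference of Apoa2 ranged from -0.16 (without knockout replicate 1) to 0.76, and was -0.11 without wild type replicate 1. That of Apob ranged from -1.41 to 0.11 (without wild type replicate 1), that of Apoc3 from -0.74 to 0.63 (without knockout replicate 1), with 0.12 without wild type replicate 2, and that of Apoh from -0.20 to 0.028 (without knockout replicate 1). With values as deposited Apoc3 was at 0.14 and Apoh at 0.11, and under quantile normalization Apoh was at 0.033. The cause was not tested. Values as deposited moved the median of all genes to 0.19, that of the members to 0.32 and that of the pathway list to 0.18, with 1 gene called higher. Groups of 35.9% of all genes then lay above and 9.22% below, and Apoh joined Apoa1 and Apoa4. With 1 library left out, 0 to 291 genes were called higher and 1 to 96 lower, most of them without knockout replicate 1. The members' median ranged from -0.042 to 0.38, and the pathway median from -0.18 to 0.13. Without knockout replicate 1, Apoa4, Plin2, A1cf, Nr1h2 and Stab1 passed limma, and without wild type replicate 2 Foxo1 did, with its value from a locus of 64 bases. The fit with the replicate number as a block called 0 genes, as did the fit without it, and left the medians at 0.11 and 0.00. Same-numbered libraries deviated together with a correlation of 0.078, and the labels do not pair them.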
